A study of Homo sapiens with 18 samples.

Results

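Long intergenic non-coding RNA (LINC) genes carry a numbered LINC symbol in the human gene nomenclature. The gene table listed 2286 identifiers whose symbol consisted of LINC and a number. Of these, 207 had a summed count of at least 100 over the 18 libraries and reached at least 1 CPM, the count scaled by the library total to counts-per-million, in 1 library or more, and these 207 identifiers are described here. They carry 206 symbols, because LINC01605 was listed under 2 identifiers. A further 1308 LINC identifiers were at 0 in every library and 771 had a count but did not reach both limits. The genes were thus selected on their level alone, by the summed count and the highest CPM, and these levels are given as a description. A gene that reached 1 CPM in 1 condition alone could enter through the condition in which it was high, and the counts below therefore describe the genes that passed and do not stand for every LINC gene.

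Most of these RNAs are made like messenger RNAs, by RNA polymerase II with capping, splicing and polyadenylation, but no conserved protein is read from them. Described examples act at their own locus on neighbouring genes, or elsewhere by binding chromatin, proteins and other RNAs, and many are present in few cell types. In the vessel wall and in virus-infected cells, non-coding RNAs of this class are known to change with flow, hypoxia and interferon.

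The cells were EA.hy926, a human endothelial hybrid line that was made by fusing umbilical vein endothelial cells with the A549 lung carcinoma line. They received transfection reagent without siRNA (Mock), non-targeting siRNA (siNT), or a pool of siRNAs against ELMO1 (siELMO1), an adaptor that works with DOCK proteins to activate the GTPase Rac, and the siRNA was used at 10 nM. Libraries were made before stimulation (0 h) or 24 h after 1 ug/ml poly(I:C), a synthetic double-stranded RNA that is sensed as a viral product. The 0 h time was 48 h after transfection, and per the paper's methods the cells had been in low serum overnight before it. No condition was kept for a further 24 h without poly(I:C), so stimulation and time in culture cannot be told apart. A change after poly(I:C), or a response to it, means below the change from 0 h to 24 h. The paper reports extensive death of stimulated siNT cells and less of it in Mock and siELMO1. The authors regard this death as the likely reason for lower inflammatory gene levels in stimulated siNT cells. Whether cell death had a part in the siNT results at 24 h below, or in the differences between responses, was not tested. Each of the 6 conditions, Mock, siNT and siELMO1 at 0 h and at 24 h, had 3 libraries of polyadenylated RNA. All 6 shared the cell line, so the data show 1 hybrid line. Nothing in the sources states that replicates came from separate days, and p-values measure the spread between these libraries.

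Library totals ranged from 40374756 to 73850946 counts, and a limit of 3 counts corresponded to 0.0384 to 0.0753 CPM. ELMO1 was 8.86-fold lower in siELMO1 than in Mock at 0 h (adjusted p = 4.45e-08) and 8.65-fold lower than in siNT (adjusted p = 2.74e-08). It ranged from 0.155 to 0.419 CPM in the 6 siELMO1 libraries and from 1.52 to 3.59 CPM in the other 12. Of the endothelial markers 10 of 12 passed the filter, with a summed level of 1385 to 1507 CPM in Mock, 1505 to 1590 CPM in siNT, while siELMO1 had 1981 to 2105 CPM at 0 h. Of the epithelial markers 4 of 8 passed, among them the keratins KRT7, KRT8 and KRT18, with sums of 817 to 2300 CPM, while CDH1, SFTPC and NKX2-1 were at 0. None of 3 leukocyte markers passed, and their sums reached at most 0.484 CPM with CD3E at 0. Of the fibroblast and smooth muscle markers 1 of 4 passed, ACTA2, with DCN at 0, and their sums at 0 h were 8.34 to 11.2 CPM in Mock, 5.18 to 5.69 CPM in siNT and 17.1 to 18.4 CPM in siELMO1. These marker sums differed between conditions, and their part in the results below was not tested. The library of siELMO1 replicate 1 at 0 h stood apart from its 2 partners, with a chi-square per gene of 70.9 and 79.1 against 10.2 to 29.2 for the 16 other replicate pairs. Numbers of LINC genes called in each comparison or against both controls are therefore also given without it. Counts for other gene sets, for subsets, over libraries, and over other combinations of comparisons are given with it only.

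At the limits of the selection, LINC00408, LINC02593 and LINC02476 lay just inside with highest values of 1.00, 1.01 and 1.02 CPM of the library total, and LINC02977, LINC00942 and LINC01399 lay just outside at 0.998, 0.989 and 0.988 CPM. By summed count the lowest genes inside were LINC01638 with 265, LINC00917 with 268 and LINC02450 with 319 counts, and no gene was left out by the summed count alone.

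Against the GENCODE v44 annotation on GRCh38, 206 of the 207 identifiers were annotated as lncRNA and 1, LINC02210, as a transcribed unitary pseudogene. The word intergenic did not hold for each of them. The annotation placed 130 over another gene, 53 of them on the same strand and 117 on the other strand, and 77 over none. A protein-coding gene was overlapped by 22, on the same strand by 9 and on the other strand by 15. Where 2 genes overlap, the counting could have shared or split their reads, and use of the strand in counting is not given in the sources used here. The start of 11 lay within 1 kb of a coding start on the other strand, as for LINC00205, which starts 137 bp from POFUT2. Within 10 kb of a coding gene lay 65, and over 100 kb from one lay 67, with a median distance of 34.5 kb. They had fewer exons than coding genes. The median length of the most abundant transcript was 1972 nt in 3 exons, against 3398 nt in 9 exons for the 12386 coding genes tested, and 30 had a single exon.

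The LINC RNAs were of low abundance. The median of their mean levels was 2.20 CPM (range 0.248 to 55.5) against 22.0 CPM for all genes tested, and 27 averaged at least 10 CPM, 153 at least 1 CPM and 54 less. In every library 188 exceeded 3 counts, and 18 were at 0 in 1 library or more. Per kb of the most abundant transcript, the scale on which levels of different genes can be compared, LINC01116 came first with 28.6 CPM per kb, followed by LINC01204 (25.7), LINC00520 (21.4), LINC02725 (18.7), LINC01358 (17.0) and LINC01234 (16.3).

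The summed level of the 207 RNAs was lowest in siNT at 0 h. It was 1118, 1143 and 1141 CPM in Mock, 932, 942 and 933 CPM in siNT, while siELMO1 had 1170, 1220 and 1248 CPM at 0 h. At 24 h it was 1199.7, 1201 and 1170 CPM in Mock, 1004, 1018 and 985 CPM in siNT, while siELMO1 had 1184, 1183 and 1163 CPM. At each time every siNT library lay below every Mock and every siELMO1 library. The sums made up 0.0945% to 0.123% of the counts as deposited. In bulk RNA, fewer cells of a type and less RNA per cell cannot be told apart.

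**Figure D1:**
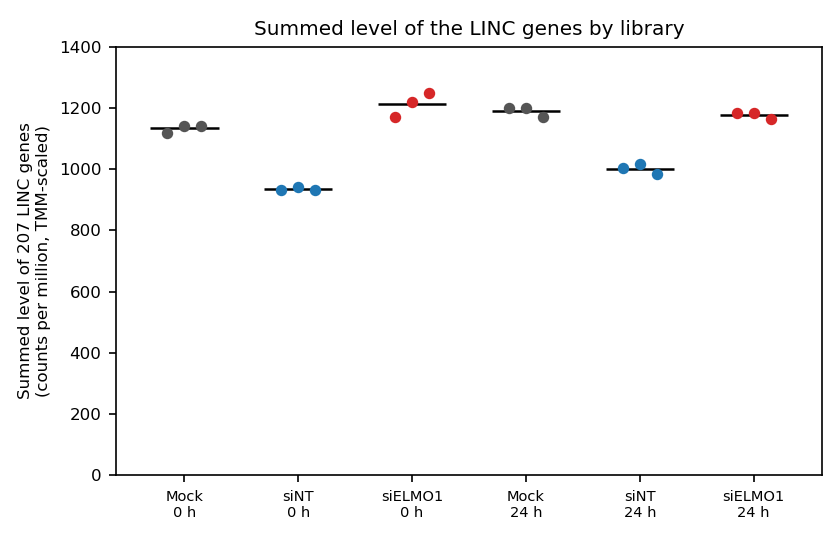
Summed level of the 207 LINC genes in normalised CPM (y axis, from 0) in each of the 18 libraries (points) by condition (x axis), with the mean of 3 libraries as a bar. The siNT libraries sit at 932 to 942 CPM at 0 h and 985 to 1018 CPM at 24 h, below every Mock and siELMO1 library of the same time.

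To see what the non-targeting siRNA did on its own, siNT was compared with Mock. A gene was called where edgeR's quasi-likelihood test across 15167 genes gave a Benjamini-Hochberg adjusted p under 0.05. At 0 h, 67 of the 207 LINC RNAs (32.4%) were lower in siNT, against 24.0% of all genes tested, and 19 (9.18%) were higher, against 27.6%. The median log2 difference of siNT minus Mock was -0.31 for the LINC RNAs and 0.03 for all genes. At 24 h 57 (27.5%) were lower, against 24.9%, and 31 (15.0%) were higher, against 25.2%, with a median of -0.23 against 0.00. Without siELMO1 replicate 1 at 0 h, which entered only through the shared estimate of spread, the counts were 71 lower and 19 higher at 0 h and 58 lower and 32 higher at 24 h. The 27 RNAs that averaged at least 10 CPM, which lie far from the limit of the selection, had a median of -0.31 at 0 h, with 15 (55.6%) lower and 4 (14.8%) higher. At 24 h their median was nearer to that of all genes, at -0.14, with 12 (44.4%) lower and 8 (29.6%) higher.

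The other annotated lncRNAs leaned the same way, while a list of well-known lncRNAs did not at 0 h. The 1656 other annotated lncRNAs had a median of -0.14 at 0 h, with 21.2% lower and 9.66% higher. At 24 h their median was -0.12, with 20.4% lower and 11.4% higher. The 3060 coding genes under 10 CPM had a median of -0.07 at 0 h, with 21.3% lower and 15.7% higher. A list of 50 well-known lncRNAs without a LINC number, 41 of which passed the filter, had a median of 0.22 at 0 h, with 16 higher and 8 lower, and of -0.24 at 24 h, with 9 higher and 18 lower. Among the LINC RNAs themselves, the 77 that overlapped no gene had a median of -0.47 at 0 h, with 35 lower and 7 higher, and the 130 that overlapped one had -0.17, with 32 lower and 12 higher, while at 24 h the medians were -0.25 and -0.23. The 67 that lay over 100 kb from a coding gene had a median of -0.27 at 0 h and -0.40 at 24 h, and the 65 within 10 kb had -0.40 at 0 h and 0.04 at 24 h, so the order of these subsets turned between the times. These subsets were not tested against each other.

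**Figure D2:**
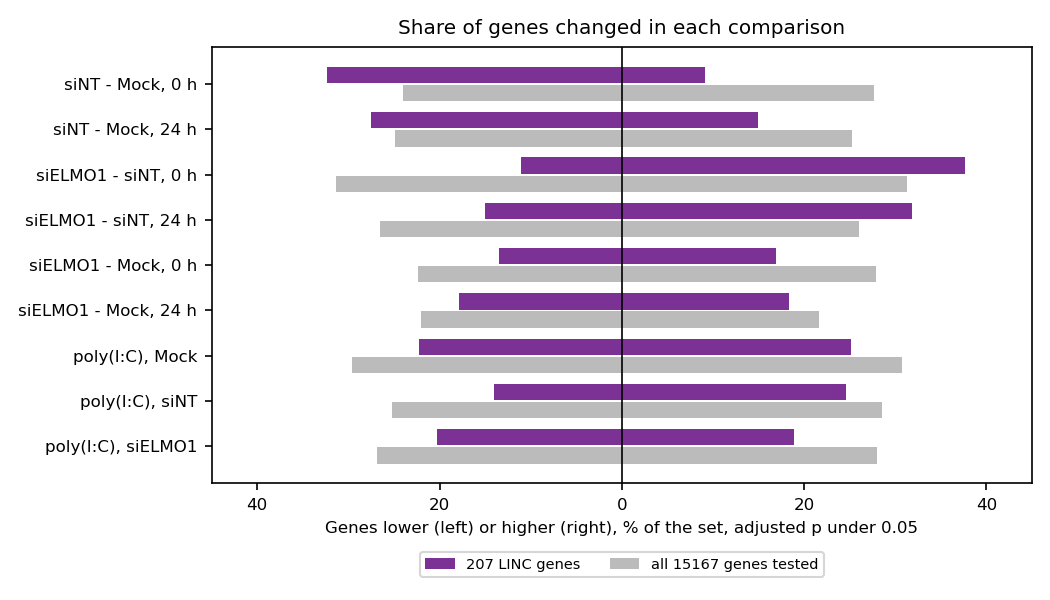
Percent of the 207 LINC genes and of all 15167 genes tested that were called lower (left of 0) or higher (right of 0) by edgeR's quasi-likelihood test in 9 comparisons. For siNT minus Mock at 0 h the LINC genes reach 32.4% on the lower side and 9.18% on the higher side, where all genes reach 24.0% and 27.6%.

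LINC02547 (chr11:12030875-12061785, plus strand, 21106 bp from DKK3, which encodes a secreted Dickkopf-family protein) showed the largest fall among the named genes. It was at 1.32, 1.04 and 1.30 CPM in Mock and at 0.194, 0.0987 and 0.120 CPM in siNT at 0 h, against 0.708, 0.779 and 1.46 CPM in siELMO1. The siNT libraries were the 3 lowest, 8.72-fold below Mock (log2 -3.12 ± 0.38 SE, adjusted p = 2.08e-06). After 24 h it was 2.80-fold lower in siNT than Mock (adjusted p = 0.00272). LINC01111, on chromosome 8, followed. Its levels at 0 h were 4.76, 4.61 and 4.44 CPM in Mock, 0.418, 0.888 and 0.599 CPM in siNT, while siELMO1 had 3.70, 3.54 and 4.25 CPM. No siNT library came near either of the other groups, and the fall was 7.25-fold at 0 h (adjusted p = 2.24e-07) and 7.08-fold at 24 h (adjusted p = 3.85e-07). LINC00632 lies on the X chromosome and is the locus from which the circular RNA CDR1as is also made, which was not measured here. At 24 h it was at 4.61, 5.98 and 4.50 CPM in Mock and 0.765, 1.23 and 1.02 CPM in siNT, 5.00-fold lower (log2 -2.32 ± 0.48 SE, adjusted p = 6.45e-04).

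A smaller group stood above Mock in siNT. LINC01605 under the identifier ENSG00000253414.4 was at 0.963, 0.987 and 0.985 CPM in Mock, 4.95, 5.99 and 4.96 CPM in siNT, while siELMO1 had 1.32, 1.03 and 1.82 CPM at 0 h. All 3 siNT libraries were the highest, 5.40-fold above Mock (log2 2.43 ± 0.30 SE, adjusted p = 2.46e-06). Its 2 identifiers overlap on the same strand, so reads could have been divided between them. LINC02104 was at 0.489, 0.433 and 0.576 CPM in Mock and 1.85, 2.86 and 2.22 CPM in siNT at 0 h, 4.61-fold higher (adjusted p = 5.29e-04), and at 24 h it was 3.29-fold higher (adjusted p = 0.0052). LINC01444 was at 1.07, 1.08 and 1.23 CPM in Mock and 4.24, 5.06 and 3.99 CPM in siNT at 24 h, 3.93-fold higher without overlap (log2 1.97 ± 0.18 SE, adjusted p = 8.02e-08).

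The question of the ELMO1 knockdown was addressed against each control, and the comparisons share libraries. Against siNT at 0 h, 78 LINC RNAs (37.7%) were higher in siELMO1, against 31.3% of all genes, and 23 (11.1%) were lower, against 31.3%, with a median log2 difference of 0.32, or 0.30 with genes at 0 set to their bound. At 24 h 66 (31.9%) were higher, against 26.0%, and 31 (15.0%) lower, against 26.5%. Of the other annotated lncRNAs 25.1% were higher and 16.4% lower than in siNT at 0 h, and 19.2% and 13.3% at 24 h. For coding genes under 10 CPM these shares were 30.0% and 19.1% at 0 h and 24.5% and 16.3% at 24 h. Against Mock the picture was more even. At 0 h 35 (16.9%) were higher, against 27.9%, and 28 (13.5%) lower, against 22.4%, with a median of 0.08, and scaling by library totals gave 23 higher and 32 lower. At 24 h 38 (18.4%) were higher, against 21.6%, and 37 (17.9%) lower, against 22.0%, with a median of 0.03. Of the other annotated lncRNAs 11.4% were higher and 13.1% lower than in Mock at 0 h, and 9.84% and 12.9% at 24 h. For coding genes under 10 CPM these shares were 22.4% and 14.9% at 0 h and 18.8% and 14.1% at 24 h. Without siELMO1 replicate 1 at 0 h the counts of higher and lower LINC genes were 76 and 24 against siNT at 0 h, 70 and 31 at 24 h, 34 and 28 against Mock at 0 h, and 40 and 38 at 24 h. Leaving out Mock replicate 1 at 0 h took the number above Mock at 0 h from 35 to 19.

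The order siNT below both other groups was counted directly over libraries. At 0 h every siNT library lay below every Mock and siELMO1 library for 58 LINC RNAs (28.0%), against 20.1% of all genes, and above every one for 16 (7.73%), against 22.2%. At 24 h this held for 43 (20.8%), against 16.4%, and for 20 (9.66%), against 17.6%.

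A difference from both controls in the same direction is the stricter reading of the knockdown. At 0 h 29 LINC RNAs (14.0%) exceeded both controls in siELMO1, against 18.0% of all genes, and 11 (5.31%) were lower than in both, against 16.7%. At 24 h 26 (12.6%) were higher, against 12.2%, and 10 (4.83%) lower, against 11.3%. Without siELMO1 replicate 1 at 0 h the counts were 27 higher and 13 lower at 0 h and 27 higher and 10 lower at 24 h, and without Mock replicate 1 at 0 h 17 were higher at 0 h.

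LINC02915 (chr15:39250682-39254845, plus strand, with THBS1, the gene of the matrix glycoprotein thrombospondin, as the nearest coding gene at 326234 bp) came first at 24 h among genes above both controls that averaged at least 0.5 CPM, ordered by the smaller of the 2 fold differences. Its levels were 22.4, 14.9 and 22.6 CPM in Mock, 14.0, 10.5 and 15.1 CPM in siNT, while siELMO1 had 56.9, 54.7 and 62.1 CPM. The siELMO1 libraries lay above all others, 2.90-fold over Mock (log2 1.54 ± 0.13 SE, adjusted p = 7.18e-08) and 4.37-fold over siNT (log2 2.13 ± 0.14 SE, adjusted p = 1.37e-09). At 0 h it was at 35.6, 36.9 and 42.5 CPM in Mock, 15.0, 14.9 and 14.8 CPM in siNT, while siELMO1 had 60.3, 54.0 and 57.2 CPM. The 3 groups stood in separate ranges, and siELMO1 was 1.49-fold above Mock (adjusted p = 0.00126) and 3.85-fold above siNT (adjusted p = 9.96e-10).

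LINC02709 was at 1.10, 1.16 and 1.32 CPM in Mock, 1.62, 1.55 and 1.40 CPM in siNT, while siELMO1 had 4.16, 4.65 and 3.70 CPM at 24 h. It rose above both controls at 24 h, 3.49-fold over Mock (adjusted p = 2.57e-06) and 2.73-fold over siNT (adjusted p = 1.91e-05), and also at 0 h, by 2.58-fold (adjusted p = 2.80e-05) and 1.58-fold (adjusted p = 0.00947). LINC02701 (chr11:68870664-68874542, plus strand) was at 0.749, 0.636 and 0.806 CPM in Mock, 0.523, 0.543 and 1.03 CPM in siNT, while siELMO1 had 1.31, 2.81 and 1.80 CPM at 0 h. Each siELMO1 library lay above all control libraries, while the Mock values lay within the siNT range, and siELMO1 was 2.67-fold above Mock (log2 1.42 ± 0.31 SE, adjusted p = 9.53e-04) and 2.79-fold above siNT (adjusted p = 4.88e-04). LINC00911, with the adhesion receptor gene FLRT2 at 109594 bp, was at 2.39, 2.54 and 2.65 CPM in Mock, 1.57, 2.06 and 1.38 CPM in siNT, while siELMO1 had 3.08, 6.00 and 5.71 CPM at 0 h. The library that stood apart gave the lowest of its siELMO1 values, and the rise over Mock was 1.94-fold (adjusted p = 8.84e-04) at 0 h and 1.93-fold (adjusted p = 0.00106) at 24 h.

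LINC01013, which overlaps CCN2, the connective tissue growth factor gene, on the other strand, was higher in siELMO1 at 24 h. It was at 2.00, 2.19 and 1.76 CPM in Mock, 1.82, 1.93 and 2.17 CPM in siNT, while siELMO1 had 5.02, 4.35 and 3.94 CPM. No control library reached the siELMO1 range, and the rise was 2.24-fold over Mock (log2 1.16 ± 0.19 SE, adjusted p = 8.87e-05) and 2.25-fold over siNT (adjusted p = 6.58e-05). CCN2 itself was higher in the same comparisons, by 0.65 and 0.86 on the log2 scale. LINC01239, LINC02388 and LINC01537 were also named by the rule but near the threshold. LINC01239 was 2.41-fold above Mock at 0 h (adjusted p = 0.0131) and no longer passed without Mock replicate 1 (adjusted p = 0.0557) or siELMO1 replicate 3 (adjusted p = 0.0701). LINC02388 was 1.97-fold above Mock at 0 h (adjusted p = 0.0113) and no longer passed without Mock replicate 1 (adjusted p = 0.0506) or 3 (adjusted p = 0.0548). LINC01537 was 2.84-fold above Mock at 24 h (adjusted p = 0.0222), and the call was lost without Mock replicate 2 (adjusted p = 0.0821), Mock replicate 3 (adjusted p = 0.0974) or siELMO1 replicate 1 (adjusted p = 0.0778), and the log2 difference was 2.23 without Mock replicate 1. Against siNT at 24 h it was 3.09-fold higher (adjusted p = 0.0123), which was lost without siNT replicate 3 (adjusted p = 0.0571) and also came to 2.23 on the log2 scale without siNT replicate 1.

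Among genes that averaged at least 0.5 CPM and lay below both controls, LINC01605 under ENSG00000253161.7 came first by the smaller of its 2 fold differences. At 0 h it was at 2.23, 2.37 and 2.02 CPM in Mock, 2.35, 3.32 and 2.53 CPM in siNT, while siELMO1 had 0.517, 1.13 and 0.899 CPM. Each siELMO1 library was below each control library, 2.65-fold against Mock (log2 -1.40 ± 0.27 SE, adjusted p = 3.57e-04) and 3.28-fold against siNT (adjusted p = 3.18e-05). In stimulated cells it was 2.16-fold (adjusted p = 0.00246) and 3.88-fold lower (adjusted p = 9.63e-06). LINC01444 was at 6.71, 7.15 and 6.72 CPM in Mock, 9.33, 9.60 and 10.6 CPM in siNT, while siELMO1 had 4.26, 3.21 and 3.58 CPM at 0 h, so that the 3 groups were separate. It was 1.86-fold below Mock (adjusted p = 1.82e-04) and 2.66-fold below siNT (adjusted p = 6.67e-07). LINC02970 was 1.48-fold below Mock at 0 h (adjusted p = 0.0157), which was lost without Mock replicate 3 (adjusted p = 0.0608) or siELMO1 replicate 2 (adjusted p = 0.0797). LINC02762 was 1.47-fold below Mock (adjusted p = 0.00473) and 1.73-fold below siNT (adjusted p = 2.01e-04) at 24 h, and fitted on the compared libraries alone the first had an adjusted p of 0.0632. LINC02057 was 1.66-fold below Mock (adjusted p = 8.59e-05) and 1.51-fold below siNT (adjusted p = 4.95e-04) at 24 h. LINC03061 was 2.20-fold below Mock at 24 h (adjusted p = 4.43e-04), while its 1.57-fold difference from siNT (adjusted p = 0.0202) was lost without siNT replicate 2 (adjusted p = 0.0751), siELMO1 replicate 1 (adjusted p = 0.0508) or siELMO1 replicate 3 (adjusted p = 0.0540).

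LINC00910 lay on opposite sides of the controls at the 2 times. At 0 h it was at 6.06, 5.94 and 5.23 CPM in Mock, 9.12, 9.80 and 7.83 CPM in siNT, while siELMO1 had 3.88, 3.79 and 4.17 CPM. At 24 h the same order of groups gave 5.43, 4.56 and 4.18 CPM, 4.30, 5.20 and 5.34 CPM and 7.07, 6.79 and 6.50 CPM. It was below Mock at 0 h (log2 -0.54 ± 0.12 SE, adjusted p = 0.00148) and above it at 24 h (log2 0.52, adjusted p = 0.00211). Its response to poly(I:C) was a rise in siELMO1 (log2 0.78, adjusted p = 3.89e-05) and a fall in siNT (log2 -0.85, adjusted p = 1.44e-05), and the difference between them was 1.63 ± 0.17 SE (adjusted p = 1.19e-06).

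**Figure D3:**
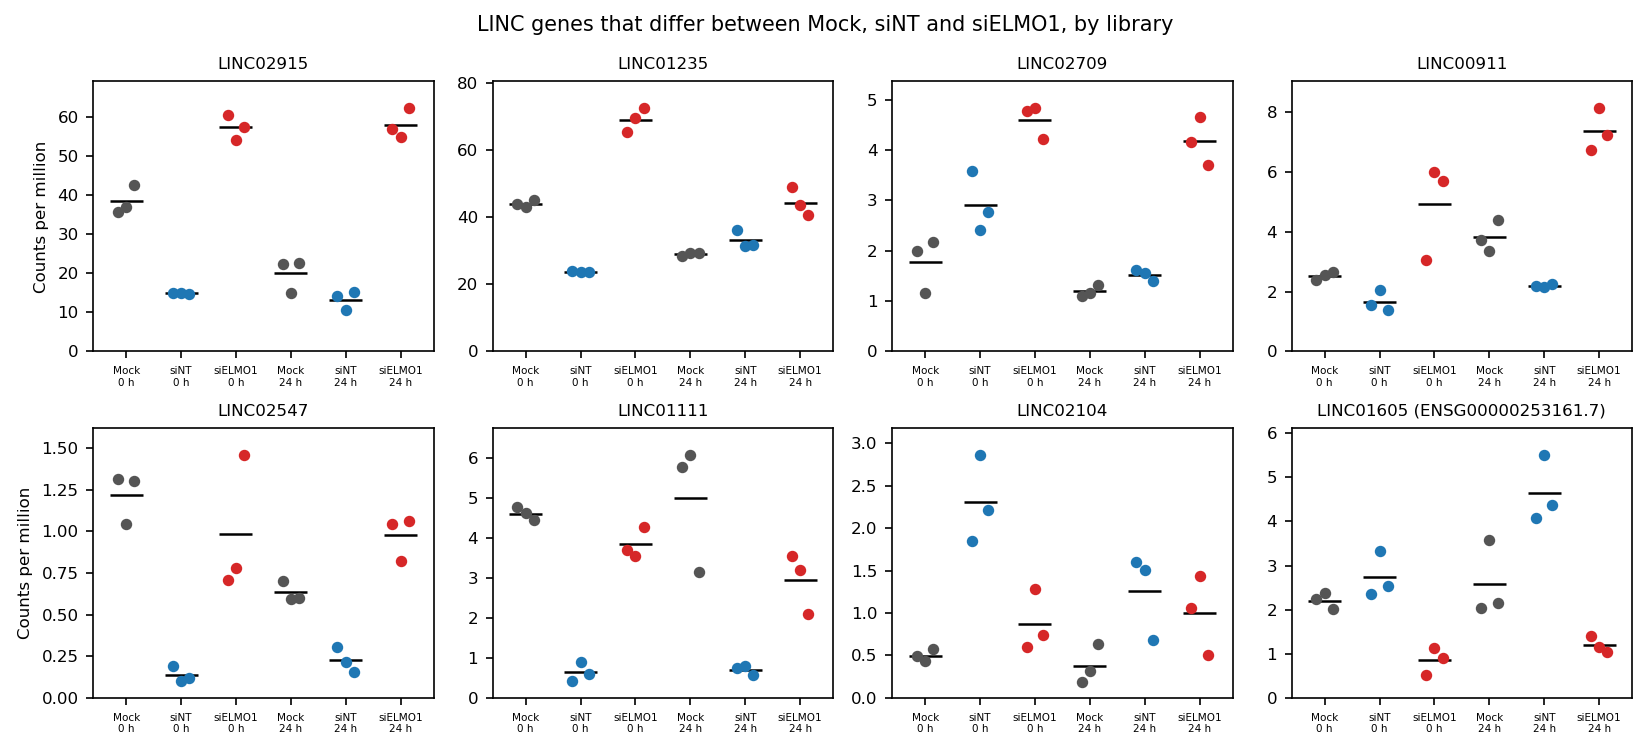
Normalised CPM (y axis, from 0) of 8 LINC genes in each library (points) by condition (x axis), with the mean of 3 libraries as a bar. LINC02915 reaches 54.7 to 62.1 CPM in siELMO1 at 24 h against at most 22.6 CPM in the controls, and LINC02547 and LINC01111 are lowest in siNT.

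Between 0 h and 24 h of poly(I:C), LINC RNAs changed in both directions. In Mock 52 (25.1%) rose, against 30.7% of all genes, and 46 (22.2%) fell, against 29.6%, with a median log2 change of -0.02. In siNT 51 (24.6%) rose, against 28.6%, and 29 (14.0%) fell, against 25.2%, with a median of 0.11. In siELMO1 39 (18.8%) rose, against 28.0%, and 42 (20.3%) fell, against 26.9%, with a median of -0.01. Of the other annotated lncRNAs 23.9% rose and 16.1% fell in Mock, 22.6% and 9.72% in siNT, and 21.6% and 13.8% in siELMO1. For coding genes under 10 CPM these shares were 25.7% and 22.2%, 23.7% and 14.6%, and 22.8% and 20.8%. Without siELMO1 replicate 1 at 0 h the numbers of LINC RNAs that rose and fell were 54 and 47 in Mock, 53 and 29 in siNT and 37 and 44 in siELMO1. A rise in all 3 transfection backgrounds was found for 24 (11.6%), against 14.4% of all genes, and a fall in all 3 for 16 (7.73%), against 11.6%. Those that rose were LINC00472, LINC00520, LINC00943, LINC00944, LINC01122, LINC01139, LINC01204, LINC01215, LINC01232, LINC01285, LINC01347, LINC01358, LINC01828, LINC02057, LINC02154, LINC02246, LINC02381, LINC02454, LINC02574, LINC02577, LINC02605, LINC02725, LINC02767 and LINC02945. Those that fell were LINC00294, LINC00641, LINC00938, LINC00963, LINC00997, LINC01116, LINC01293, LINC01444, LINC01605 (ENSG00000253414.4), LINC01615, LINC01963, LINC02035, LINC02211, LINC02615, LINC02762 and LINC03077.

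The promoters of 4 LINC genes with large changes are shown, picked with their values known from those whose RefSeq start lay within 50 bases of the GENCODE start. Each runs 5′ to 3′ on the gene's strand from 250 bases before to 50 bases after the RefSeq start (GRCh38.p14), and capitals mark matches to the letters of the interferon-stimulated response element core, the gamma-activated site, the NF-kB-like site and AP-1, which are spelled out further on. LINC01285 rose after poly(I:C) (chrX:118839306-118839605, plus strand), LINC02762 (chr11:112270499-112270798, plus strand) and LINC01444 (chr18:14970419-14970718, minus strand) fell, and LINC02915 (chr15:39250419-39250718, plus strand) was higher in siELMO1.
LINC01285: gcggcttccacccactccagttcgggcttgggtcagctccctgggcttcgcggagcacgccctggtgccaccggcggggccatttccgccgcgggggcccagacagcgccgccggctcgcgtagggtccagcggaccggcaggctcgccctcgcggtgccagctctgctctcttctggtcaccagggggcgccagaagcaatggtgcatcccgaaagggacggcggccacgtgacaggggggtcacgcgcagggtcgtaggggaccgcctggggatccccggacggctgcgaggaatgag
LINC02762: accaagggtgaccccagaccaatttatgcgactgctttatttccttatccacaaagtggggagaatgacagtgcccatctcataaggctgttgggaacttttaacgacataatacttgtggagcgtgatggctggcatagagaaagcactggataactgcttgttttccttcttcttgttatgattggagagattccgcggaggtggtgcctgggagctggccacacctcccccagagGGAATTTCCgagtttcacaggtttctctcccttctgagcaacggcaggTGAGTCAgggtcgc
LINC01444: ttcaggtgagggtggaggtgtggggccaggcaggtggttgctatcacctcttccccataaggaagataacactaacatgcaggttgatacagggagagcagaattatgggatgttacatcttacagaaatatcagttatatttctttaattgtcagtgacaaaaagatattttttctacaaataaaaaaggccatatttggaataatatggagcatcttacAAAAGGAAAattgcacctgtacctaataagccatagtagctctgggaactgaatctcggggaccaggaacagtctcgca
LINC02915: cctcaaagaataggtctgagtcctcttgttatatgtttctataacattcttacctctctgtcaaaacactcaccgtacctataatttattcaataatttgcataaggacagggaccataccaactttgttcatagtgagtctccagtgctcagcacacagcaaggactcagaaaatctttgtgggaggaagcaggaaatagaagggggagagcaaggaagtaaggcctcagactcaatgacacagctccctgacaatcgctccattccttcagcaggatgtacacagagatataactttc
In LINC02762 the first capitals are a match to the NF-kB-like letters, starting 12 bases before the start, and the second are a match to the AP-1 letters, starting at base 37 after it. In LINC01444 the capitals are a match to the interferon-stimulated response element core, starting 29 bases before the start. LINC01285 and LINC02915 held no match to the letters marked by capitals. Matches to the antioxidant response element letters, at position -185 of LINC02762 and -13 of LINC02915 from the start, are printed in lower case.

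LINC01285 (chrX:118839539-118919669, plus strand) had counts only after stimulation. All 9 libraries at 0 h were at 0. At 24 h it was at 1.39, 0.712 and 1.10 CPM in Mock, 0.593, 0.465 and 1.12 CPM in siNT, while siELMO1 had 1.50, 1.34 and 1.42 CPM. Against a limit of 3 counts per library it was at least 25.6-fold higher in Mock (adjusted p = 2.21e-06), at least 15.7-fold higher in siNT (adjusted p = 8.08e-06) and at least 24.2-fold higher in siELMO1 (adjusted p = 2.81e-06).

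LINC02574 (chr1:27660328-27666279, minus strand), described as an interferon-induced RNA in influenza infection, overlaps IFI6, an interferon-stimulated gene, on the same strand. At 0 h it was at 0, 0.176 and 0.217 CPM in Mock, at 0.132 CPM in 1 siNT library and at 0 in the 5 other siRNA libraries. At 24 h it was at 9.52, 13.1 and 7.74 CPM in Mock, 5.93, 6.31 and 6.60 CPM in siNT, while siELMO1 had 5.16, 9.89 and 7.00 CPM. The rise was 73.4-fold in Mock (log2 6.20 ± 0.60 SE, adjusted p = 2.22e-07) and at least 125-fold in siELMO1 (adjusted p = 1.57e-07). In siNT the fitted log2 change was 7.17 ± 0.71 SE (adjusted p = 4.09e-07), which rested on the counts of replicate 2 at 0 h, without which that condition was at 0 and the fitted value was 11.57. IFI6 rose by 6.06, 5.58 and 6.22 on the log2 scale in Mock, siNT and siELMO1, and reads of these overlapping genes could have been shared.

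LINC02605, a single-exon RNA on chromosome 8 with IL7, the gene of interleukin 7, at 29784 bp, rose strongly in Mock and siELMO1 and less in siNT. At 0 h its 9 libraries lay between 0.204 and 0.379 CPM. In stimulated cells it was at 8.49, 8.14 and 10.2 CPM in Mock, 1.87, 2.29 and 2.99 CPM in siNT, while siELMO1 had 7.52, 7.69 and 10.5 CPM. Every siNT library was below every other stimulated library. Whether the death of stimulated siNT cells had a part in this was not tested. The rise was 37.0-fold in Mock (log2 5.21 ± 0.25 SE, adjusted p = 5.51e-12), 8.12-fold in siNT (log2 3.02 ± 0.24 SE, adjusted p = 1.02e-08) and 28.9-fold in siELMO1 (log2 4.85 ± 0.25 SE, adjusted p = 2.16e-11). The response was 1.83 ± 0.35 SE log2 units larger in siELMO1 than in siNT (adjusted p = 5.15e-04) and 2.19 smaller in siNT than in Mock (log2 difference -2.19 ± 0.34 SE, adjusted p = 1.03e-04). IL7 rose by 2.25 in Mock, 0.49 in siNT and 2.12 in siELMO1 on the log2 scale.

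LINC02246, with the nuclear receptor corepressor gene NRIP1 at 42683 bp, was at 0.719, 0.649 and 0.294 CPM in Mock at 0 h and 9.29, 9.01 and 6.87 CPM at 24 h. In siNT it went from 0.792, 0.674 and 0.629 CPM to 3.94, 5.22 and 3.24 CPM, and in siELMO1 from 0.327, 0.678 and 0.379 CPM to 2.91, 3.20 and 3.90 CPM. All stimulated libraries exceeded all unstimulated ones, by 15.2-fold in Mock (adjusted p = 4.59e-09), 5.90-fold in siNT (adjusted p = 1.01e-06) and 7.43-fold in siELMO1 (adjusted p = 4.19e-07). LINC00943 rose from 0.122, 0.377 and 0.220 CPM to 2.26, 1.52 and 2.62 CPM in siELMO1, 9.26-fold (log2 3.21 ± 0.43 SE, adjusted p = 5.70e-06), and by 8.20-fold in Mock (adjusted p = 4.81e-06) and 5.22-fold in siNT (adjusted p = 1.21e-04).

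Of the RNAs that fell, LINC01963 and LINC02035 both have a single exon. LINC01963 was at 11.0, 10.2 and 10.6 CPM in Mock at 0 h and 1.39, 1.71 and 1.76 CPM at 24 h. It fell 6.52-fold in Mock (log2 -2.70 ± 0.20 SE, adjusted p = 2.30e-09), 1.90-fold in siNT (adjusted p = 4.57e-04) and 3.08-fold in siELMO1 (adjusted p = 1.29e-06). LINC02035 (chr3:122886941-122892416, plus strand) went from 11.3, 12.6 and 12.6 CPM to 2.04, 2.00 and 2.18 CPM in Mock, from 7.20, 7.20 and 5.55 CPM to 4.87, 4.40 and 4.18 CPM in siNT, and from 15.9, 16.9 and 18.9 CPM to 4.84, 4.24 and 4.04 CPM in siELMO1. The libraries of the 2 times did not overlap in any background, and the fall was 5.86-fold in Mock (adjusted p = 4.55e-12), 1.48-fold in siNT (adjusted p = 4.03e-04) and 3.94-fold in siELMO1 (adjusted p = 1.10e-10). Over the 30 single-exon LINC genes, 4 rose and 11 fell in Mock, with a median of -0.35, 4 rose and 7 fell in siNT, with a median of 0.05, and 2 rose and 12 fell in siELMO1, with a median of -0.41. Over the 44 with 2 exons, 7 (15.9%) rose and 13 (29.5%) fell in Mock (median -0.06). For these, 7 rose and 7 fell in siNT (median 0.03), and 6 rose and 8 fell in siELMO1 (median -0.01). Over the 133 with at least 3 exons, 41 (30.8%) rose and 22 (16.5%) fell in Mock (median 0.12). In siNT 40 (30.1%) rose and 15 (11.3%) fell (median 0.16), and in siELMO1 31 (23.3%) rose and 22 (16.5%) fell (median 0.03). Of all genes tested 30.7% rose and 29.6% fell in Mock, 28.6% and 25.2% in siNT, and 28.0% and 26.9% in siELMO1. These subsets were not tested against each other.

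LINC02762, whose promoter is shown above (chr11:112270748-112362534, plus strand, 793 bp from PTS, an enzyme gene of tetrahydrobiopterin synthesis), fell in all backgrounds. It was at 11.0, 11.9 and 11.5 CPM in Mock, 9.58, 8.95 and 9.27 CPM in siNT, while siELMO1 had 8.68, 8.31 and 8.51 CPM at 0 h. In stimulated cells it was at 2.90, 3.79 and 2.55 CPM, 4.15, 3.50 and 3.22 CPM and 2.23, 2.33 and 1.70 CPM in the same order. Stimulated and unstimulated libraries were far apart, by 3.71-fold in Mock (adjusted p = 2.54e-09), 2.56-fold in siNT (adjusted p = 2.61e-07) and 4.06-fold in siELMO1 (adjusted p = 1.95e-09). LINC01444 fell 6.08-fold in Mock (adjusted p = 6.65e-10), 2.22-fold in siNT (adjusted p = 1.05e-05) and 2.22-fold in siELMO1 (adjusted p = 1.76e-05). LINC01605 under ENSG00000253414.4 fell 6.45-fold in siNT (adjusted p = 8.38e-07), from 4.95, 5.99 and 4.96 CPM to 0.612, 1.07 and 0.770 CPM.

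LINC00997 fell 3.22-fold in siELMO1 (adjusted p = 9.63e-05), and LINC03077 fell 2.38-fold in siNT (adjusted p = 0.00459), both also falling in the other backgrounds. LINC01432 fell in Mock, from 0.627, 0.879 and 0.972 CPM to 0, 0.133 and 0.171 CPM (log2 -2.97 ± 0.77 SE, adjusted p = 0.00288). In siNT its fall of 2.02 log2 units (adjusted p = 0.0239) was not called with the compared libraries alone (adjusted p = 0.0532), without siNT replicate 2 (adjusted p = 0.0503) or 3 at 0 h (adjusted p = 0.0568), or without siNT replicate 2 (adjusted p = 0.0705) or 3 at 24 h (adjusted p = 0.0568), while it was -3.24 without siNT replicate 1 at 24 h, and in siELMO1 the change was -1.22 (adjusted p = 0.13).

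**Figure D4:**
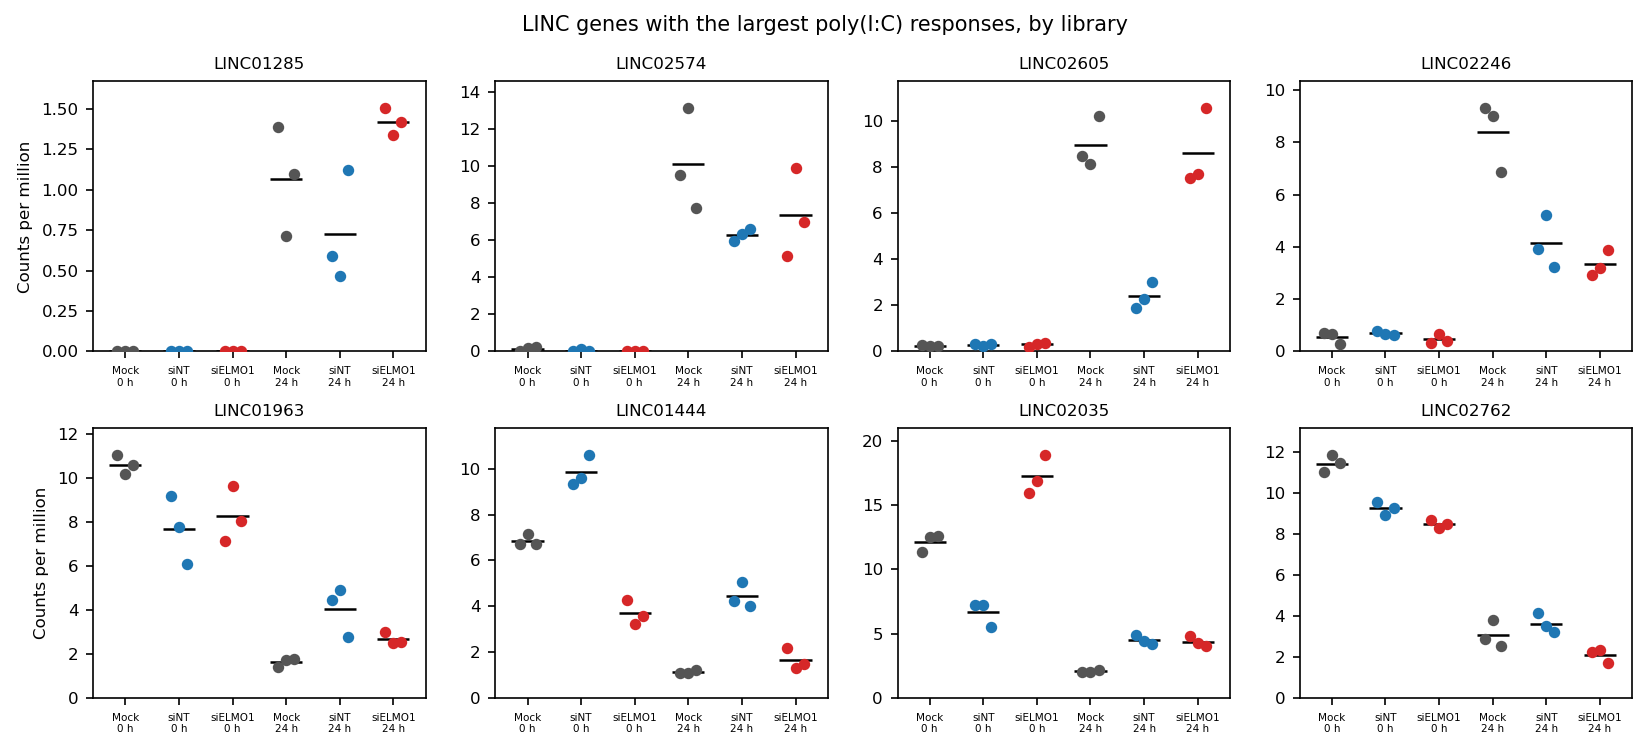
Normalised CPM (y axis, from 0) of 8 LINC genes in each library (points) by condition (x axis), with the mean of 3 libraries as a bar. LINC01285 is at 0 in the 9 libraries before stimulation, LINC02605 reaches 7.52 to 10.5 CPM in stimulated Mock and siELMO1 libraries but 1.87 to 2.99 CPM in siNT, and LINC02035 falls to 2.00 to 2.18 CPM in Mock.

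Some genes outside the named set had a condition entirely at 0 and are given after their values were seen. LINC01215 was at 0 in unstimulated Mock and siELMO1 libraries and reached 0.571, 0.447 and 0.839 CPM and 1.03, 1.04 and 1.12 CPM at 24 h, at least 14.9-fold and at least 18.1-fold higher. LINC00917 was at 0 in unstimulated Mock and reached 1.41, 1.04 and 1.13 CPM at 24 h, at least 28.7-fold higher, while stimulated siNT libraries had 0.210, 0.161 and 0.245 CPM and siELMO1 libraries 0.0910, 0.342 and 0 CPM. Both of these appeared mainly after stimulation. LINC01293 went the other way in Mock, from 0.321, 0.284 and 0.217 CPM to 0, at least 5.20-fold lower. At 24 h LINC01638 was at 0 in siNT and at 0.531, 1.24 and 0.620 CPM in siELMO1, at least 14.6-fold higher. LINC00161 was at 0.612, 1.09 and 0.560 CPM in siNT at 24 h and in siELMO1 at 0.0466 CPM in 1 library and 0 in the others.

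Whether the change from 0 h to 24 h of poly(I:C) differed between backgrounds was tested as an interaction. Between siELMO1 and siNT it was more positive in siELMO1 for 14 LINC RNAs (6.76%), against 16.7% of all genes, and more negative for 18 (8.70%), against 17.8%. Between siELMO1 and Mock it was more positive for 16 (7.73%), against 13.8%, and more negative for 14 (6.76%), against 14.6%. Between siNT and Mock it was more positive in siNT for 30 (14.5%), against 15.0%, and more negative for 17 (8.21%), against 16.0%. A difference in at least 1 of the 3 pairs was found for 68 (32.9%), against 52.1% of all genes. In the same order of pairs, the other annotated lncRNAs had 6.10% and 8.82%, 5.37% and 6.04%, and 6.04% and 6.10%. Coding genes under 10 CPM had 9.58% and 11.8%, 7.65% and 7.65%, and 9.12% and 7.42%. Without siELMO1 replicate 1 at 0 h the LINC counts were 13 and 23, 20 and 20, and 30 and 17. Without siELMO1 replicate 2 at 24 h the more positive count between siELMO1 and siNT went from 14 to 9.

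LINC02035 had tested differences between siNT and both other backgrounds. Its fall was 1.98 ± 0.16 SE log2 units smaller in siNT than in Mock (adjusted p = 1.04e-07), and the difference of siELMO1 from siNT was -1.41 ± 0.16 SE (adjusted p = 2.38e-06). Its siNT libraries started from the lowest level at 0 h. LINC02777, whose nearest coding gene JUN, an AP-1 subunit, lies at 98820 bp, fell in Mock from 2.63, 2.91 and 2.52 CPM to 0.286, 1.14 and 0.462 CPM (log2 -2.08 ± 0.37 SE, adjusted p = 1.05e-04) and changed by -0.01 in siNT. The difference was 2.07 ± 0.51 SE (adjusted p = 0.00492), and 2.82 without Mock replicate 2 at 24 h. LINC02154 rose from 9.44, 9.71 and 9.04 CPM to 33.6, 31.1 and 30.2 CPM in Mock and from 12.0, 11.0 and 12.5 CPM to 23.4, 20.2 and 16.8 CPM in siELMO1. Its rise was called in all 3 backgrounds and was 0.98 smaller in siELMO1 than in Mock (log2 difference -0.98 ± 0.13 SE, adjusted p = 2.68e-05).

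LINC01013 rose 2.46-fold in siELMO1 (adjusted p = 1.87e-05) and by 0.56 log2 units in siNT (adjusted p = 0.0222), and in Mock the change was -0.22 (adjusted p = 0.327). Its response was 1.52 ± 0.27 SE larger in siELMO1 than in Mock (adjusted p = 4.47e-04). LINC01572 fell in siNT (log2 -1.24, adjusted p = 0.00158), and the siELMO1 response exceeded that of siNT by 1.68 ± 0.40 SE (adjusted p = 0.00348). The differences named for LINC00408 (-1.63 ± 0.59 SE, adjusted p = 0.0405), LINC01269 (1.57 ± 0.56 SE, adjusted p = 0.0466), LINC03061 (-1.07 ± 0.31 SE, adjusted p = 0.0165) and LINC01605 under ENSG00000253414.4 (-1.41 ± 0.43 SE, adjusted p = 0.0198) lay near the threshold. That of LINC03061 was lost without siELMO1 replicate 2 at 0 h (-0.74, adjusted p = 0.0559) or Mock replicate 2 at 24 h (-0.89, adjusted p = 0.0511), and that of LINC01605 without Mock replicate 2 (-1.22, adjusted p = 0.0621) or siNT replicate 1 at 24 h (-1.24, adjusted p = 0.0507). For LINC00408 the difference moved between -1.73 and -1.40 and was lost without any 1 of the 3 siNT libraries, siELMO1 replicate 3 or Mock replicate 1 at 0 h, or of siNT replicates 1 and 2 and siELMO1 replicates 2 and 3 at 24 h (adjusted p up to 0.105). LINC01269 lost its call without any 1 of the Mock and siELMO1 libraries other than Mock replicate 3 and siELMO1 replicate 1 at 0 h, and without siNT replicate 3 at 0 h or siNT replicates 2 or 3 at 24 h (adjusted p up to 0.129), and was at 2.18 without siELMO1 replicate 1 at 0 h.

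The most abundant LINC RNAs by CPM differed in how they followed these patterns. LINC01234 (chr12:113583886-113773726, minus strand), a long transcript studied mainly in tumours, was at 60.3, 66.3 and 62.1 CPM in Mock, 33.1, 32.8 and 33.3 CPM in siNT, while siELMO1 had 71.0, 84.2 and 87.7 CPM at 0 h. The 3 groups were separate, with siNT 1.90-fold below Mock (adjusted p = 1.02e-08) and siELMO1 2.45-fold above siNT (adjusted p = 5.48e-11) and 1.29-fold above Mock (adjusted p = 3.77e-04). LINC01235 (chr9:13406380-13488125, minus strand) showed the same order, at 43.9, 43.1 and 45.1 CPM, 23.9, 23.8 and 23.7 CPM and 65.3, 69.5 and 72.4 CPM. It fell after poly(I:C) in Mock (log2 -0.60, adjusted p = 4.08e-07) and siELMO1 (log2 -0.64, adjusted p = 2.22e-07) and rose in siNT (log2 0.48, adjusted p = 1.01e-05), and its responses in siELMO1 and siNT differed by -1.12 ± 0.09 SE (adjusted p = 5.83e-08). LINC02577 rose from 21.7, 18.7 and 20.8 CPM to 56.3, 60.7 and 54.0 CPM in Mock, 2.79-fold (adjusted p = 3.79e-11), and was 1.96-fold lower in siNT than Mock at 0 h (adjusted p = 3.91e-08).

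LINC01116 fell after stimulation in Mock from 62.5, 60.9 and 62.9 CPM to 21.3, 22.8 and 20.3 CPM, 2.89-fold without overlap (adjusted p = 4.02e-10), and 1.54-fold in siNT (adjusted p = 3.84e-05) and 1.67-fold in siELMO1 (adjusted p = 5.70e-06). LINC00205 fell 1.82-fold in Mock (adjusted p = 4.82e-09) and was 1.41-fold lower in siNT than Mock at 0 h (adjusted p = 7.64e-06). LINC00504 was 2.11-fold lower in siNT than Mock at 24 h (adjusted p = 5.54e-07) and 1.64-fold higher in siELMO1 than in siNT (adjusted p = 4.59e-05). LINC02693 was higher in siNT than in Mock at 0 h (1.45-fold, adjusted p = 1.24e-05) and at 24 h (1.73-fold, adjusted p = 2.30e-07). For LINC01116 every siNT library also lay above every Mock and siELMO1 library at 24 h.

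A list of 14 LINC RNAs with a described role was also followed, of which LINC00520, LINC00511, LINC01013, LINC00467, LINC00963, LINC00472, LINC00324, LINC02574 and LINC02605 passed the filter, LINC00607 had 75 counts in all, and LINC00460 and LINC00941 were listed at 0. LINC00520, also known as LEENE, is a flow-induced endothelial RNA that promotes expression of the endothelial nitric oxide synthase. At 0 h it was at 33.2, 33.8 and 33.4 CPM in Mock, 24.0, 26.0 and 24.1 CPM in siNT, while siELMO1 had 17.9, 22.1 and 19.6 CPM. The groups were in separate ranges, and siELMO1 was 1.69-fold below Mock (log2 -0.76 ± 0.08 SE, adjusted p = 1.97e-07) and 1.25-fold below siNT (adjusted p = 0.0015). After 24 h it was at 63.8, 65.5 and 58.8 CPM in Mock, 35.2, 36.3 and 30.3 CPM in siNT, while siELMO1 had 33.2, 33.8 and 32.9 CPM. It rose after poly(I:C) by 1.87-fold in Mock (adjusted p = 8.22e-09), 1.38-fold in siNT (adjusted p = 5.24e-05) and 1.68-fold in siELMO1 (adjusted p = 1.84e-07), and the stimulated siELMO1 and siNT libraries were 1.88-fold (adjusted p = 2.99e-08) and 1.85-fold (adjusted p = 3.91e-08) below Mock.

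LINC00963 fell by 1.30-fold in Mock, 1.40-fold in siNT and 1.41-fold in siELMO1 after poly(I:C) (adjusted p = 1.50e-04, 1.16e-05 and 1.00e-05), with no call between transfection groups. LINC00472, described as a tumour suppressor RNA, was 1.53-fold higher in siNT than in Mock at 0 h (adjusted p = 1.35e-06), and rose after poly(I:C) by 0.60, 0.37 and 0.18 log2 units in Mock, siNT and siELMO1 (adjusted p = 1.10e-06, 2.75e-04 and 0.045). LINC00467 was 1.99-fold lower in siNT than Mock at 0 h (adjusted p = 3.95e-04). LINC00324, at 0.286 to 1.16 CPM, and LINC00511, at 0.669 to 1.94 CPM, passed the test in no comparison. Over the whole set, 181 of the 207 (87.4%) were called in at least 1 of 9 comparisons between conditions, against 93.2% of all genes, and 26 in none.

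The list of other well-known lncRNAs, of which 41 were tested, gave a comparison outside the LINC symbols. At 0 h MEG3, CCDC18-AS1, FTX and CASC15 exceeded both controls in siELMO1, and 11 were lower, among them the architectural RNA of paraspeckles NEAT1, NORAD, PVT1 and 5 small nucleolar RNA host genes of the SNHG series. Of all genes tested, 18.0% exceeded both controls and 16.7% were lower than both at 0 h. At 24 h 2 of the listed lncRNAs were higher and 10 lower, against 12.2% and 11.3% of all genes. After poly(I:C) 21 of the listed lncRNAs rose and 10 fell in Mock (median 0.34), 12 rose and 9 fell in siNT (median -0.05), and 14 rose and 7 fell in siELMO1 (median 0.16). The shares of all genes that rose and fell were 30.7% and 29.6% in Mock, 28.6% and 25.2% in siNT, and 28.0% and 26.9% in siELMO1.

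The nearest coding gene was tested for 148 of the LINC RNAs, and their changes were set side by side as a description, since genes of a library share its depth. Over all 148 pairs Spearman's rho of the log2 changes was 0.23 for poly(I:C) in Mock and 0.03 for siNT minus Mock at 0 h. For the 19 overlapping pairs Pearson's r was 0.89 and rho 0.27 after poly(I:C) in Mock, with LINC02574 and IFI6 far from the other pairs. For the 37 pairs up to 10 kb apart rho was 0.47 in Mock, 0.49 in siELMO1 and -0.13 in siNT. Both genes were called in 52 pairs after poly(I:C) in Mock, 32 of them in the same direction, and in 51 pairs for siNT minus Mock at 0 h, 25 of them in the same direction. Among named pairs, THBS1, nearest to LINC02915, was higher in siELMO1 than in siNT by 2.03 at 0 h and 2.61 at 24 h on the log2 scale. DKK3, nearest to LINC02547, differed by -0.33 for siNT minus Mock at 0 h, the comparison in which LINC02547 was named. DKK3 was higher in siELMO1 than in siNT by 1.52 and in siELMO1 than in Mock by 1.19 at 0 h. The siELMO1 and Mock libraries of LINC02547 overlapped at that time.

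**Figure D5:**
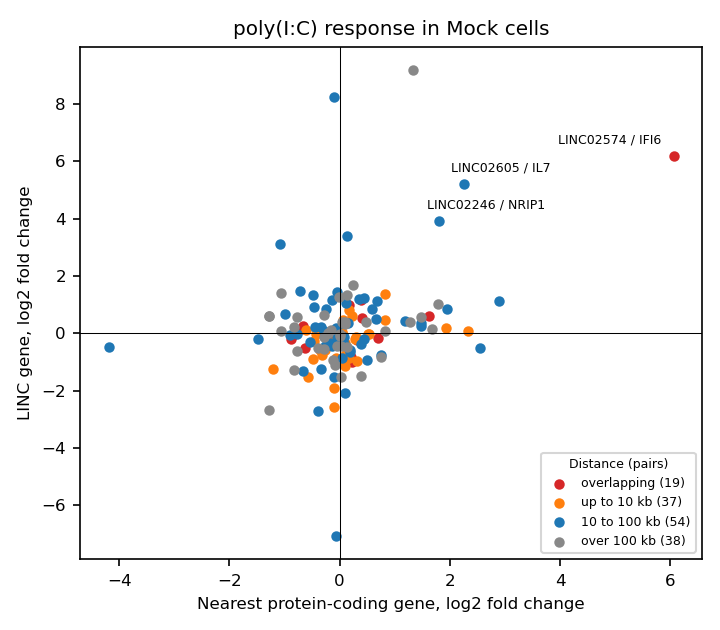
Log2 fold change after poly(I:C) in Mock of the nearest coding gene (x axis) and of the LINC gene (y axis) for 148 pairs, coloured by their distance (19 overlapping, 37 up to 10 kb, 54 from 10 to 100 kb, 38 over 100 kb). LINC02574 with IFI6, LINC02605 with IL7 and LINC02246 with NRIP1 lie high on both axes, and the points of LINC00917, LINC01215 and LINC01293 at 9.18, 8.24 and -7.06 come from genes with a condition at 0, so their fitted values are no bounds.

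RefSeq promoters, such as those printed above, were matched to 122 of the 207, and their letters were compared with all 35116 promoters of the same length of 300 bases, on both strands and with overlaps between motifs allowed. The interferon-stimulated response element core (AAANNGAAA) occurred in 13 (10.7%), against 10.5% of all promoters, and the gamma-activated site (TTCNNNGAA) in 13 (10.7%), against 7.66%. The AP-1 letters (TGANTCA) occurred in 22 (18.0%), against 7.71%, and the antioxidant response element (TGACNNNGC) in 21 (17.2%), against 13.3%. The NF-kB-like letters (GGANNTTCC) occurred in 4 (3.28%), against 4.56%, the CRE (TGACGTCA) in 2 (1.64%), against 1.85%, and E2F letters (TTTGGCGC or TTTCCCGC) in 3 (2.46%), against 2.27%. The response element core lay in 7 of 26 matched LINC promoters whose gene rose after poly(I:C) in Mock, 6 of 29 in siNT and 5 of 21 in siELMO1, and in 1 of 30 whose gene fell in Mock. The AP-1 letters lay in 8 of 26, 8 of 29, 6 of 21 and 5 of 30 of the same promoters, and the antioxidant letters in 6, 6, 5 and 6 of them. The sets of LINC genes that rose share members. Promoters of all genes that rose, and of LINC genes that fell in siNT or siELMO1, were not counted separately. The median GC content was 51.5% for the LINC promoters and 58.7% for all promoters, and letter matches are a description.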

How the data were processed

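The study sequenced polyadenylated RNA of 18 EA.hy926 libraries, 3 in each of 6 conditions, and per the paper's methods the authors aligned reads with STAR to GRCh38 and ran StringTie with GENCODE v44 and prepDE. The deposited values are estimated counts per gene, which prepDE derives from coverage and read length and rounds to whole numbers. The read length given to it and its use of strand are not given in the sources used here, and rounding and length affect mainly rare RNAs.

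Groups were taken from the labels, and the replicate number only names a library. Of 62754 genes, 24784 were at 0 in all libraries and 15167 with a summed count of at least 100 and at least 1 CPM in 1 library were tested. Counts were fitted across all 18 libraries with TMM scaling (factors 0.958 to 1.06, total counts 40374756 to 73850946) in edgeR 4.0.16 (quasi-likelihood test, R 4.3.3, common biological coefficient of variation 12.2%). Benjamini-Hochberg adjustment ran over all 15167 genes, and 12 comparisons were made, 3 of them interactions. Fold changes are given with SE. A fold against a condition at 0 is a lower bound from 3 counts per library. The SE was computed as the absolute log2 fold change divided by the square root of the quasi-likelihood F statistic. It holds the spread between these libraries as well as counting error, while the limit of 3 counts covers counting error only.

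The LINC genes, the lists and the comparisons were chosen with earlier results of these data known. Genes named in the text were the 10 highest by mean CPM, the 4 largest in each direction in siELMO1 against both controls at each time and in each poly(I:C) response, the 2 largest in each direction for siNT against Mock and for each interaction, and 14 with a described role. Except for the first and last of these, a gene had to be called, average at least 0.5 CPM and, except for interactions, have libraries of the 2 groups that did not overlap. Genes at the limits of the selection were named as well. LINC01204, LINC02725 and LINC01358 were named for their rank per kb, and genes with a condition at 0 after their values were seen.

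Alternatives were limma-voom 3.58.1, DESeq2 1.42.0, relative log expression scaling, library totals, no filter, edgeR's own filter, a replicate block, the compared libraries alone, leaving out each library, and leaving out LINC genes that overlap another gene. The edgeR test was tried on simulated counts for siELMO1 against Mock at 0 h alone. Deviations from group means of equally numbered libraries correlated between -0.371 and 0.296 over 45 pairs, so the numbers were not treated as pairing. Promoters came from RefSeq (GRCh38.p14) by symbol, and 85 of the 207 were not matched.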

Additional observations from a re-analysis of the deposited data

Results flagged for a closer look

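The response to poly(I:C) differed between transfection backgrounds, by an interaction term of edgeR's quasi-likelihood test, for the following genes among those named by the rule. Between siELMO1 and siNT the log2 response of LINC02605 was larger by 1.83 and that of LINC01572 by 1.68 in siELMO1, while the differences of LINC00408 (-1.63) and LINC02035 (-1.41) were negative. Between siELMO1 and Mock the response of LINC01269 was larger by 1.57 and that of LINC01013 by 1.52 in siELMO1, and the differences of LINC03061 (-1.07) and LINC02154 (-0.98) were negative. Between siNT and Mock the differences were 2.07 for LINC02777 and 1.98 for LINC02035, which fell less in siNT, and -2.19 for LINC02605 and -1.41 for LINC01605 (ENSG00000253414.4). LINC02605 and LINC02035 each appear in 2 of these comparisons, which share the siNT libraries. The part of cell death in stimulated siNT cells in these differences was not tested. With 3 libraries per condition, no single library was tested for lying far from its group.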

How the results depend on the processing

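Of 360 counts with 1 library left out, for 20 counts other than those against a single control, 358 stayed within 1.5 times the reported count, and of 180 under the other alternatives 157 did. For the 8 counts against a single control 143 of 144 and 62 of 72 did. None of the named values changed sign under these alternatives, and 43 of 1368 with 1 library left out and 8 of 608 others lost their call. Without the 130 genes that overlap another gene, which leaves fewer genes by construction, the counts of higher and lower genes were 18 and 2 at 0 h and 14 and 1 at 24 h against both controls, 20 and 9 and 20 and 8 against Mock, 38 and 6 and 29 and 5 against siNT, and 7 and 35 and 12 and 23 for siNT against Mock. In the same subset 17 rose and 24 fell after poly(I:C) in Mock, 17 and 13 in siNT and 10 and 14 in siELMO1, and the interactions gave 5 and 6, 8 and 6, and 13 and 7 for siELMO1 against siNT, siELMO1 against Mock and siNT against Mock. With no filter on low counts 17 genes were above both controls at 0 h, 20 above Mock at 0 h and 7 had a more negative response in siELMO1 than in Mock. Scaling by library totals gave 23 above Mock at 0 h, and the compared libraries alone gave 6 below both controls at 24 h, and the cause was not tested. With each library left out in turn, the number above both controls at 0 h ranged from 17 to 32, the number above Mock at 0 h from 19 to 38 and the number with a more positive response in siELMO1 than in siNT from 9 to 13. With a replicate block no count moved by over 1.5 times, and of the named calls those of LINC00408 (-1.64, adjusted p = 0.0505) and LINC01269 (1.56, adjusted p = 0.0543) were lost. Depth limits the 54 genes under 1 CPM most.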
